A study of Mus musculus with 6 samples.

Results

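The Peg3 and Snrpn imprinted domains of mouse chromosome 7 are represented here by 9 genes, 4 around Peg3 (Peg3, Usp29, Zim1 and Zfp264) and 5 around Snrpn (Snrpn, Ndn, Magel2, Mkrn3 and Ube3a). They were chosen by gene symbol, and all 9 were found among the 53927 symbols of the count tables. All 9 also passed the filter on low counts, as 9 of 20422 genes tested. RNA came from embryonic stem cells (ESCs), wild type by genotype, with 3 libraries in each of 2 media. The BRD0705/PD03 cells were kept with 8 µM BRD0705, which inhibits the alpha form of the kinase GSK3, and the 2i cells with 3 µM CHIR99021, which inhibits both forms. Both groups also received 1 µM PD0325901, an inhibitor of the kinase MEK, in serum-free N2B27 medium. Library totals were 27825601 to 40790837 counts in BRD0705/PD03 and 16968959 to 51180228 counts in 2i. The labels name the line as E14, whereas the growth protocol speaks of B6D2F1 ESCs that were established and expanded on feeders in their own medium. Levels are in CPM, counts scaled to a common library size. Each log2 fold change has BRD0705/PD03 on top and is given with its standard error (SE).

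An imprinted gene is transcribed mainly from the copy inherited from one parent, according to DNA methylation that was laid down in the germ line at an imprinting control region. In mouse, Peg3, Usp29, Zfp264, Snrpn, Ndn, Magel2 and Mkrn3 are known as paternally expressed, and Zim1 as maternally expressed. Ube3a is maternal in neurons, where the antisense transcript Snhg14 runs across it from the paternal copy, and comes from both copies in most other cells. The counts used here are not split by parental copy, so a level is the sum of both.

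The 2 groups of libraries also differed in other ways that touch each result below. Y-linked genes summed to 310.5 to 332 CPM over 6 genes in BRD0705/PD03 and to 9.54 to 11.1 CPM in 2i. All 6 were called higher, but Kdm5d differed little, at 4.39 CPM in BRD0705/PD03 and 3.29 CPM in 2i. Among genes averaging 1 CPM or more, the median log2 fold change was -0.80 for 566 on the X chromosome and -0.0025 for 1233 on chromosome 7. E14 is a male line, so the low Y-linked level of the 2i libraries goes against that label, and the effects of medium and of the cells' origin cannot be told apart. Fibroblast markers, which feeder cells would carry, summed to 1539, 1998 and 2223 CPM in BRD0705/PD03 and to 1087, 1102 and 1037 CPM in 2i. Of the 22 markers 19 were called higher and 1 lower, and 0 were at 0 in either group. Over all genes tested, 30.1% were called higher and 31.4% lower. Neural markers summed to 278 to 281 CPM in BRD0705/PD03 and 245 to 268 CPM in 2i, with 7 of 11 tested called higher and 2 lower. Stmn2, which did not pass, and Tubb3, called lower, made up most of both sums. Pax6, called higher, stood at 13.1 CPM in BRD0705/PD03 and 0.363 CPM in 2i. Of 6 tested trophoblast markers and 6 tested primitive endoderm markers, 3 were higher and 1 lower in each list; with DESeq2, 2 primitive endoderm markers were higher and 0 lower, as Pdgfra (adjusted p = 0.0784) and Gata4 (adjusted p = 0.138) did not pass. ESC markers summed to 2761 to 2948 CPM in BRD0705/PD03 and 4855 to 5039 CPM in 2i, so the labelled cell type showed its own markers in both. Of the 10 ESC markers 7 were lower, among them Nanog and Klf4, and 2 were higher, Zfp42 and Utf1. The part of these differences in the results below was not tested. In bulk RNA, fewer cells of a type and less RNA per cell cannot be told apart.

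Of the 9 genes, 4 were called higher in BRD0705/PD03 (Peg3, Usp29, Magel2 and Ube3a) and 2 lower (Zfp264 and Ndn) by edgeR's quasi-likelihood test at an adjusted p under 0.05. Zim1, Snrpn and Mkrn3 did not pass. Among all genes tested 61.4% were called, 30.1% as higher and 31.4% as lower, so 6 of 9 is close to the background share. The groups did not overlap for 7 of the 9 genes, against 66.0% of all genes tested. The median log2 fold change of the 9 was 0.24, against 0.00 over all genes. Each domain held genes called higher and genes called lower.

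**Figure D1:**
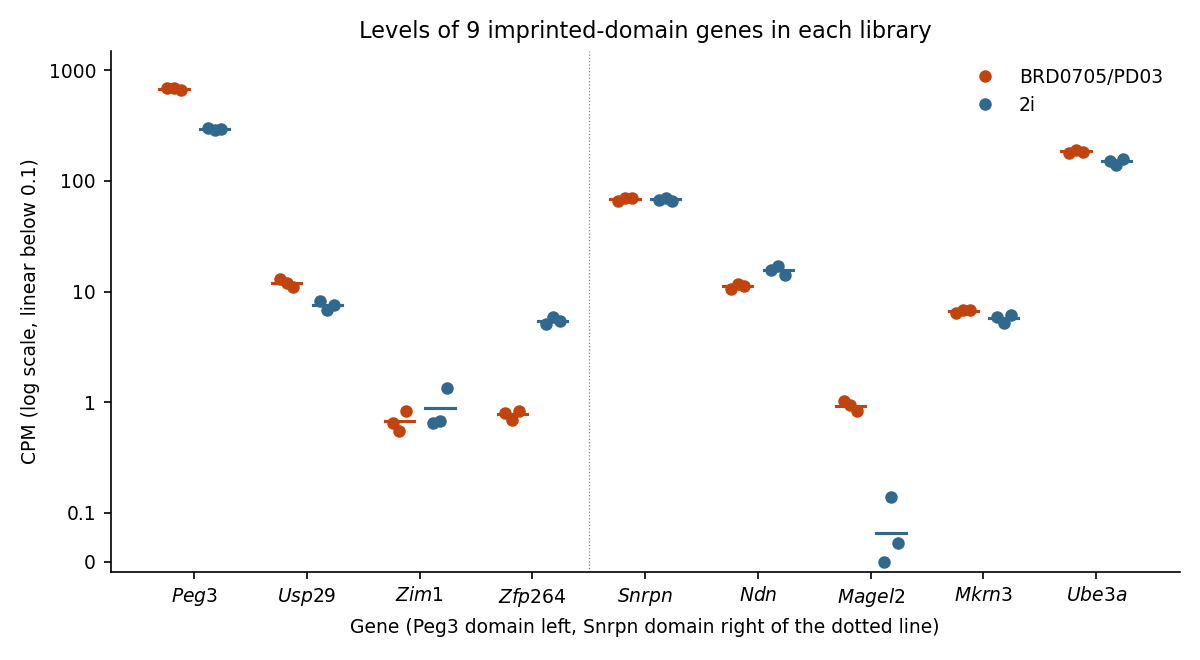
CPM of the 9 genes (log axis, linear below 0.1) in each library, with BRD0705/PD03 in orange, 2i in blue and a line at each group's mean. Peg3 lies at 668 to 687 CPM in BRD0705/PD03 and 287 to 302 in 2i, while the groups overlap for Snrpn and Zim1.

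Peg3, which encodes a large zinc finger protein that binds DNA, was the most abundant of the 9 genes by CPM. It lies on the minus strand of chromosome 7 (6703892 to 6730431, GRCm38). It had 686, 687 and 668 CPM in BRD0705/PD03, and 302, 287 and 296 CPM in 2i. Every BRD0705/PD03 library stood well above every 2i library, and the spread within a group was small. The log2 fold change was 1.21 ± 0.04 (adjusted p = 5.8e-15), a 2.31-fold difference.

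Usp29, which encodes a protease that removes ubiquitin, starts on the opposite strand close to Peg3 (6730578 to 6967219, plus strand), so that both genes are read outward from a shared promoter region. The RefSeq starts lie 164 bases apart, and their promoter windows share 263 of 300 bases. The Peg3 window is shown because both genes that leave it were higher in BRD0705/PD03. It is RefSeq sequence of GRCm38.p6, written in the direction of Peg3, minus strand, chr7:6730370-6730669, with each CpG, the dinucleotide that DNA methylation marks, in capitals:
Peg3: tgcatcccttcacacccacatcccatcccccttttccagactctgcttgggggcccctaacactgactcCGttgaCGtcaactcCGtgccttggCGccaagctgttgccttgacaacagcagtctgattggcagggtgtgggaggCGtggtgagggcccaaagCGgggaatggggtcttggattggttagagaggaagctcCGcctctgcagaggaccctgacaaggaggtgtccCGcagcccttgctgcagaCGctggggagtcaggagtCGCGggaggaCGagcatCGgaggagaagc

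That window holds 13 CpG dinucleotides, above the median of 7 over 32817 mouse promoter windows of the same length and below their upper quartile of 20. Usp29 stood at 12.9, 12.02 and 11.1 CPM in BRD0705/PD03, and at 8.19, 6.76 and 7.54 CPM in 2i. The groups did not overlap, and the log2 fold change was 0.70 ± 0.10 (adjusted p = 4.1e-06). Both genes thus rose. Usp29 counts are less certain than those of Peg3, since 14.3% of its exon length lies opposite exons of Zim3 and whether strand was used in counting is unknown.

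Zim1 and Zfp264 are zinc finger loci that flank this pair, and GENCODE lists Zfp264 as a transcribed pseudogene (6977246 to 6991087, plus strand). Zfp264 had 0.80, 0.69 and 0.83 CPM in BRD0705/PD03, and 5.04, 5.90 and 5.41 CPM in 2i. It was thus several times lower in every BRD0705/PD03 library, with a log2 fold change of -2.81 ± 0.17 (adjusted p = 4.3e-11). These values rest on 79 counts summed over BRD0705/PD03 and 518 over 2i. Zim1 (6671269 to 6696450, minus strand) was low in all libraries, at 0.65, 0.55 and 0.83 CPM in BRD0705/PD03 and 0.65, 0.68 and 1.34 CPM in 2i. Its groups overlapped, and it did not pass the test (-0.36 ± 0.32, adjusted p = 0.346).

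The other genes of the Peg3 domain were low in BRD0705/PD03 as well. Zim2, a zinc finger locus 8.9 kb from Zim1 (6651748 to 6662368), had 0.062, 0.073 and 0.074 CPM in BRD0705/PD03, and 2.73, 2.55 and 2.76 CPM in 2i. In counts this was 7 summed over BRD0705/PD03 and 244 over 2i, and the log2 fold change was -5.19 ± 0.31 (adjusted p = 3.4e-11). Zim3 lay below the filter, with 1 count over BRD0705/PD03 and 21 over 2i. Its ratio of 2i over BRD0705/PD03 was 22.9 (exact 95% interval 3.69 to 948, counting error only). As 68.8% of the exon length of Zim3 lies opposite exons of Usp29, its counts are less certain than that interval without the strand setting. So Peg3 and Usp29, read outward from the middle of the domain, were higher in BRD0705/PD03, while Zfp264 and Zim2 toward its ends were lower.

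**Figure D2:**
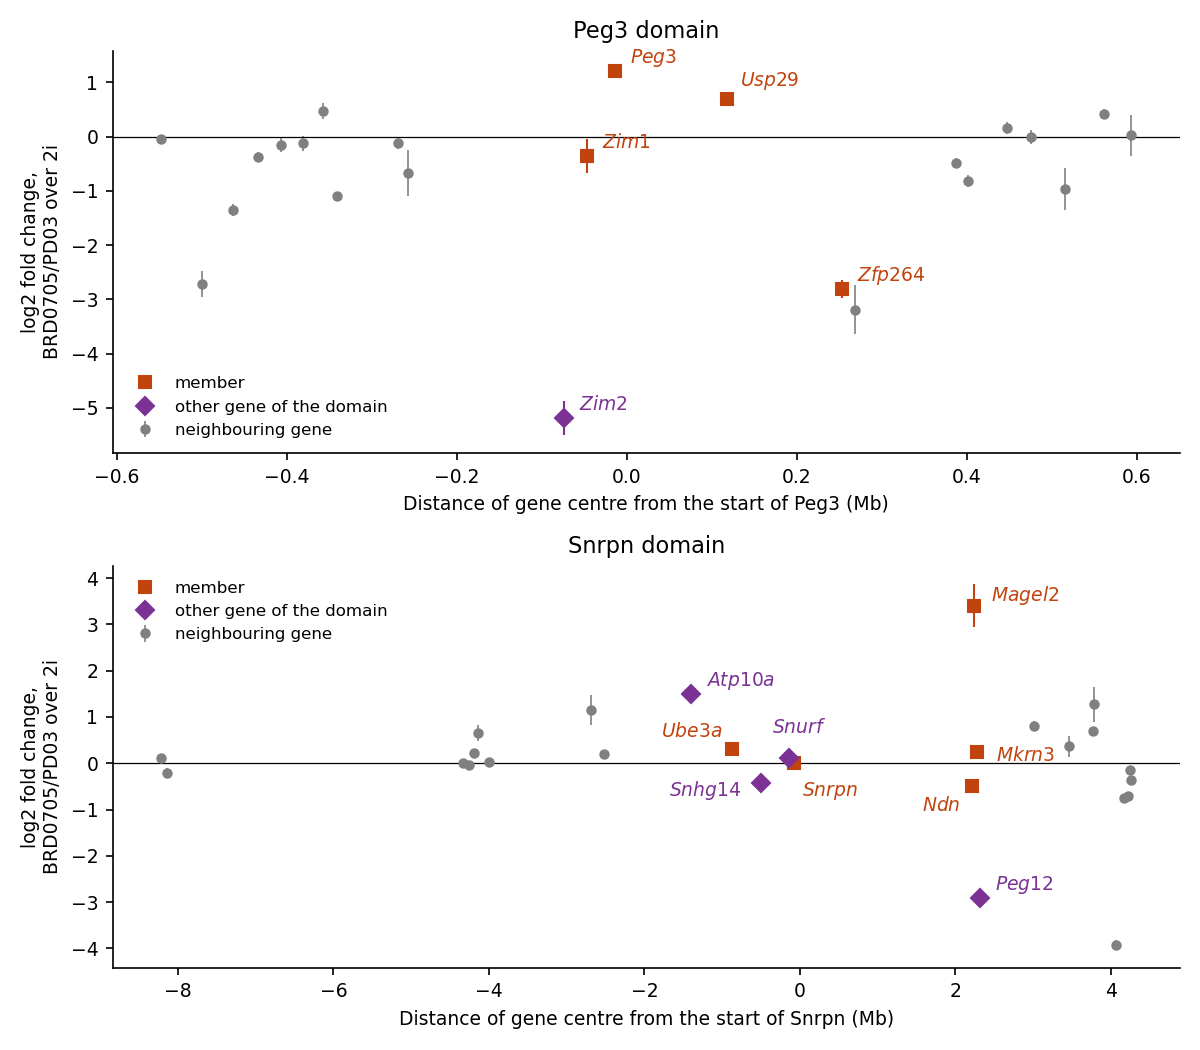
Log2 fold change of BRD0705/PD03 over 2i, with SE bars, against the distance of each gene's centre from the start of Peg3 (above) or of Snrpn (below), in Mb. Members are orange squares, other genes of the domains purple diamonds and neighbours grey points (18 of 20 around Peg3 and 19 of 22 around Snrpn, those near enough and not drawn as genes of the domain); Peg3 and Usp29 lie above 0 and Zfp264 and Zim2 below it.

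Outside the Peg3 domain, the 20 nearest tested protein-coding genes were taken, 10 on each side. Of these, 2 were higher and 8 lower in BRD0705/PD03 (30.1% and 31.4% over all genes tested), with a median of -0.14. Many of them are zinc finger genes. Among those with the smallest p, Zfp28 (-1.09 ± 0.08), Epp13 (-1.35 ± 0.11), Zscan5b (-2.72 ± 0.24) and Zfp773 (-0.81 ± 0.12) were lower. Aurkc, which encodes an aurora kinase of germ cells and was singled out after its values were seen, starts 4.21 kb beyond Zfp264. It had 0.165 ± 0.123 CPM in BRD0705/PD03 and 1.42 ± 0.377 CPM in 2i (SD, n = 3 each; -3.19 ± 0.45, edgeR adjusted p = 1.8e-05).

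In the Snrpn domain, Snrpn encodes SmN, a protein of the spliceosome that is closely related to SmB, the product of Snrpb. Snrpn (59982495 to 60140219, minus strand) had 66.1, 70.2 and 69.8 CPM in BRD0705/PD03, and 67.8, 70.6 and 66.3 CPM in 2i. The groups overlapped and the log2 fold change was 0.01 ± 0.05 (adjusted p = 0.895). Snurf, a short upstream reading frame of the same transcript, stood at 10.4 ± 0.388 CPM in BRD0705/PD03 and 9.5 ± 0.657 CPM in 2i (SD, n = 3 each) and did not pass either (edgeR adjusted p = 0.293). The annotation places all 216 exon bases of Snurf, and 27.3% of the exon bases of Snrpn, also within the gene model Gm38393. Estimated counts divide such reads between the models, so the split among them is uncertain. Summed over Snrpn, Snurf and Gm38393, an addition made after the data were seen, the level was 153 ± 5.91 CPM in BRD0705/PD03 and 147 ± 6.22 CPM in 2i (SD, n = 3 each).

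The window across the start that RefSeq gives to both Snurf and Snrpn is shown, since the imprinting control region of the domain includes this promoter. It is written in the direction of the genes, minus strand of GRCm38.p6, chr7:60005150-60005449, with each CpG in capitals:
Snurf-Snrpn: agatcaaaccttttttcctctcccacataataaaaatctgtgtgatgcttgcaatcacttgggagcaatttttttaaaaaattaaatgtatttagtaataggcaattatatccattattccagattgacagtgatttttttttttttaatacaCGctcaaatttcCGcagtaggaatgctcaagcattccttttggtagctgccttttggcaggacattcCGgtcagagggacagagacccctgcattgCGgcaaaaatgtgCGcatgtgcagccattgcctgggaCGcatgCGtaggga

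It holds 7 CpG dinucleotides, the median over all windows. The letters TGCCGC, the core of the motif bound by the imprint-keeping factor Zfp57, were searched on both strands of the promoter windows and occur in 11.6% of 32817 windows. They were found once here, on the strand opposite to that printed, and once in the window of Zim1, and in no window of Peg3, Usp29, Ndn, Magel2, Mkrn3, Ube3a or Peg12. ATCAAAG, a motif of the TCF/LEF factors that act with beta-catenin, was found in 3.73% of all windows and in none of those named. AAGATGGC, the core of the motif of the factor YY1, was found in 2.74% of all windows and among those named only once, in Ube3a. RefSeq windows were matched for 8 of the 9 members, and RefSeq lists further starts of Snrpn upstream.

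Ndn, Magel2 and Mkrn3 lie next to each other beyond Snrpn and have a single exon each; Ndn was lower in BRD0705/PD03, Magel2 was higher and Mkrn3 did not pass. Ndn encodes necdin, a MAGE protein abundant in neurons that restrains cell growth (62346569 to 62350262, plus strand). It had 10.4, 11.7 and 11.3 CPM in BRD0705/PD03, and 15.6, 17.1 and 14.0 CPM in 2i. Each BRD0705/PD03 library was below each 2i library, with a log2 fold change of -0.49 ± 0.09 (adjusted p = 6.7e-05).

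Magel2, a MAGE gene whose protein takes part in the recycling of membrane proteins from endosomes (62377010 to 62381640, plus strand), begins 26.7 kb beyond the end of Ndn. It had 33, 26 and 34 counts in BRD0705/PD03, and 0, 7 and 1 counts in 2i, which is 1.02, 0.94 and 0.83 CPM in BRD0705/PD03 and 0, 0.140 and 0.039 CPM in 2i. It was thus detected in each BRD0705/PD03 library and had 8 counts in all in 2i. The 2i library with 0 counts allows a level of up to 0.178 CPM. The log2 fold change was 3.41 ± 0.47 (adjusted p = 3.9e-06), which lay between 3.12 and 5.07 over 13 other settings, with the highest without 2i replicate 2.

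Mkrn3, an intronless gene of a ubiquitin ligase known from human puberty timing (62417593 to 62420139, minus strand), stood at 6.44, 6.76 and 6.84 CPM in BRD0705/PD03 and 5.88, 5.15 and 6.16 CPM in 2i. The groups did not overlap, but the gap was small and the gene did not pass (0.24 ± 0.11, adjusted p = 0.0701). It passed as higher with upper-quartile factors (adjusted p = 0.0248), with a mean of at least 1 CPM (adjusted p = 0.0483) and without 2i replicate 3 (adjusted p = 0.042).

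Peg12, also called Frat3, is a paternally expressed gene of the FRAT family, whose proteins bind GSK3. It lies 41.7 kb beyond Mkrn3 (62461871 to 62464510, minus strand). It had 1.57, 1.38 and 1.64 CPM in BRD0705/PD03, and 11.2, 11.6 and 12.1 CPM in 2i, so it was far lower in all BRD0705/PD03 libraries (-2.91 ± 0.12, adjusted p = 1.7e-13). Magel2 and Peg12, at either side of Mkrn3, thus differed in opposite directions.

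The promoter windows of Ndn, Magel2 and Peg12 are set side by side because these neighbours differed in direction. All are RefSeq sequence of GRCm38.p6 in the direction of the gene, with each CpG in capitals: Ndn from chr7:62348027-62348326 (plus), Magel2 from chr7:62376729-62377028 (plus) and Peg12 from chr7:62464461-62464760 (minus):
Ndn: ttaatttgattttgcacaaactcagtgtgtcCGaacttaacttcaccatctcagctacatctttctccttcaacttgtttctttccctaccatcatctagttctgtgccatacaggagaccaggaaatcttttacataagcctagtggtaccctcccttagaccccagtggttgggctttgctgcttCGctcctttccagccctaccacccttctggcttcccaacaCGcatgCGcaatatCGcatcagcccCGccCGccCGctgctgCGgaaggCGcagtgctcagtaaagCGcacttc
Magel2: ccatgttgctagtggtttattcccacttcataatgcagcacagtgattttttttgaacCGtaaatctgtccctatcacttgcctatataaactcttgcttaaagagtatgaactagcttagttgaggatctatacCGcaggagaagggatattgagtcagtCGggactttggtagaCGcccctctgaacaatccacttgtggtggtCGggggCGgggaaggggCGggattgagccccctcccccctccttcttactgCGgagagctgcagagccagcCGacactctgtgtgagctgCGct
Peg12: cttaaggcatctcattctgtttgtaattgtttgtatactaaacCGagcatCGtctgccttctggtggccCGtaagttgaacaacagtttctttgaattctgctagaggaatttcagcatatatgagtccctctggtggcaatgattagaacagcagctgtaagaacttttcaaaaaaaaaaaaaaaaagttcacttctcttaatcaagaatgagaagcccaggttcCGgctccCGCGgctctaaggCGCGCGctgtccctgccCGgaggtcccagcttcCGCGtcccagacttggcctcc

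The 3 windows were alike in CpG number, with 11 in Ndn, 10 in Magel2 and 12 in Peg12. Their GC content was 51.0%, 51.0% and 47.0%. The RefSeq start of Ndn lies inside the longer GENCODE gene. In each window most CpG dinucleotides lie toward the end near the start site.

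Ube3a encodes a ubiquitin ligase whose maternal loss causes Angelman syndrome in humans (59228750 to 59311536, plus strand). It had 180, 190 and 184 CPM in BRD0705/PD03, and 152, 140 and 159 CPM in 2i. The groups did not overlap, and the log2 fold change was 0.30 ± 0.05 (adjusted p = 1.6e-05), a small rise. Snhg14, the long antisense transcript that also hosts clusters of small nucleolar RNAs, fell, with 159, 157 and 150 CPM in BRD0705/PD03, against 209, 206 and 211 CPM in 2i (-0.43 ± 0.04, adjusted p = 1.9e-08). Ube3a and Snhg14 lie opposite each other over 1803 exon bases, 8.74% of the exon length of Ube3a. The gene models Gm44560 and 9330162G02Rik also lie opposite Ube3a exons, over 9.82% and 8.71% of that length. Without the strand setting, reads from these stretches cannot be assigned with certainty.

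Atp10a, which encodes a flippase of membrane phospholipids and is the next tested protein-coding gene beyond Ube3a, rose. It had 28.8, 31.1 and 30.3 CPM in BRD0705/PD03, and 9.67, 10.5 and 11.8 CPM in 2i, without overlap (1.49 ± 0.07, adjusted p = 2.1e-12). Snord64 and Snord107 had 0 counts in all libraries. Ipw, Snord115, Snord116 and Peg3os were not analysed here. The Snrpn domain had 22 neighbours, among them Snurf, Peg12, Atp10a and Gm38393. Of these, 8 were higher and 6 lower (30.1% and 31.4% over all genes tested), with a median of 0.10. Trpm1, which encodes a cation channel of pigment and retinal cells, had the lowest log2 fold change of them (-3.93 ± 0.10), at 4.25 ± 0.868 CPM in BRD0705/PD03 and 64.6 ± 1.57 CPM in 2i (SD, n = 3 each). Klf13, a zinc finger transcription factor gene, stood at 88.3 ± 0.408 CPM in BRD0705/PD03 and 54.1 ± 0.656 CPM in 2i (SD, n = 3 each). Herc2, a ubiquitin ligase gene whose protein binds that of Ube3a, did not pass (0.03 ± 0.05, adjusted p = 0.684).

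Ratios between 2 genes of the same library do not depend on how libraries are scaled, and 8 such ratios were compared. For 7 of them the groups did not overlap, with an exact two-sided permutation p of 0.1, the smallest that 3 against 3 libraries allow, and an adjusted p of 0.114. None can therefore pass the threshold. The log2 ratio of Usp29 over Peg3 was -5.82 ± 0.09 in BRD0705/PD03 and -5.30 ± 0.10 in 2i (SD, n = 3 each), a difference of -0.53. For Zfp264 over Peg3 the ratio was -9.75 ± 0.15 in BRD0705/PD03 and -5.75 ± 0.15 in 2i, a difference of -4.0. Magel2 over Ndn stood at -3.56 ± 0.20 in BRD0705/PD03 and at -7.92 ± 1.10 in 2i, a difference of 4.36. That size is not fixed by the counts, since 2i replicate 1 had 0 counts of Magel2 and its ratio was set by the 0.5 added to each count; the difference was 3.88 with 1 added and 3.80 without that library.

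The other ratios were as follows. Ndn over Snrpn was -2.62 ± 0.04 in BRD0705/PD03 and -2.14 ± 0.10 in 2i (SD, n = 3 each), Mkrn3 over Ndn was -0.74 ± 0.05 in BRD0705/PD03 and -1.44 ± 0.28 in 2i, and Ube3a over Snrpn was 1.43 ± 0.03 in BRD0705/PD03 and 1.14 ± 0.14 in 2i. Zim1 over Peg3 was -9.97 ± 0.32 in BRD0705/PD03 and -8.42 ± 0.57 in 2i. The ratio of Snrpn over Snrpb overlapped between groups, at -1.42 ± 0.06 in BRD0705/PD03 and -1.45 ± 0.05 in 2i, a difference of 0.03 (exact permutation p = 0.5).

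**Figure D3:**
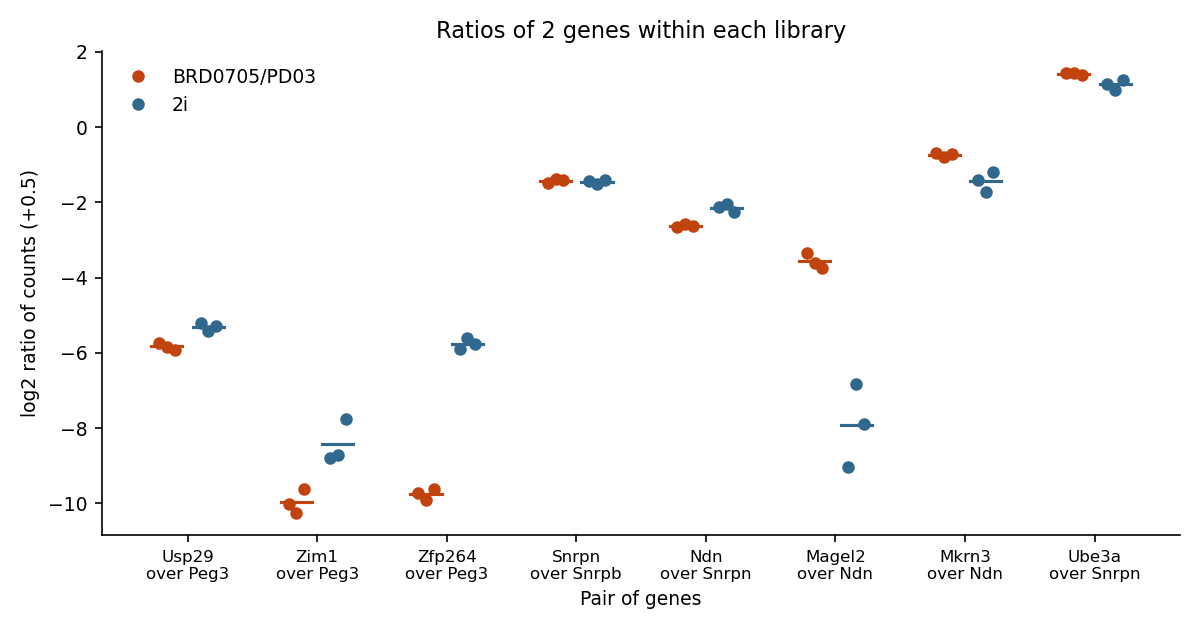
Log2 ratio of the counts of 2 genes (0.5 added to each) in each library, with BRD0705/PD03 in orange, 2i in blue and lines at group means. Zfp264 over Peg3 averages -9.75 in BRD0705/PD03 and -5.75 in 2i, while Snrpn over Snrpb averages -1.42 in BRD0705/PD03 and -1.45 in 2i.

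Per kilobase of annotated exon, which allows levels of different genes to be ordered, Peg3 stood first in BRD0705/PD03, at 51.1 ± 0.814 CPM per kb (SD, n = 3). Snrpn followed at 31.8 ± 1.05, Ube3a at 8.96 ± 0.231, Ndn at 3.02 ± 0.177 and Mkrn3 at 2.62 ± 0.0831 CPM per kb. Usp29 at 0.665, Zfp264 at 0.274, Magel2 at 0.201 and Zim1 at 0.0835 CPM per kb formed the low end. In 2i Snrpn came first at 31.6 ± 0.999 CPM per kb, ahead of Peg3 at 22.1 ± 0.55 CPM per kb (SD, n = 3). There Zfp264, at 1.93 ± 0.153 CPM per kb, overlapped with Mkrn3, at 2.25 ± 0.205, and Magel2 came last at 0.0129 CPM per kb. Exon lengths are of all annotated transcripts together and may be longer than the transcripts made in these cells, as with 18078 bases for Usp29.

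Imprinted genes elsewhere in the genome are given for comparison as 2 lists. Of 19 tested paternally expressed genes, 6 were higher and 8 lower in BRD0705/PD03, with a median of -0.08. Plagl1, a zinc finger gene, had 2.69 ± 0.388 CPM in BRD0705/PD03 and 87.5 ± 5.87 CPM in 2i (SD, n = 3 each), and Peg10 and Zrsr1 were lower at -1.68 ± 0.06 and -1.25 ± 0.06. Nnat, which encodes a small membrane protein of neurons, was higher at 2.81 ± 0.13. Of 17 tested maternally expressed genes, 15 were higher and 1 lower, with a median of 1.15. Among them were the noncoding RNA Rian at 1032 CPM in BRD0705/PD03 and 187 CPM in 2i, Mirg (2.54 ± 0.07), and the growth inhibitors Cdkn1c (4.92 ± 0.16) and Grb10 (1.15 ± 0.05). The 1 called lower was Igf2r (-0.93 ± 0.04). Some genes of this list are neighbours, such as Rian and Mirg on chromosome 12, so they are not all independent. The background is the same 30.1% higher and 31.4% lower, and no difference between lists was tested.

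**Figure D4:**
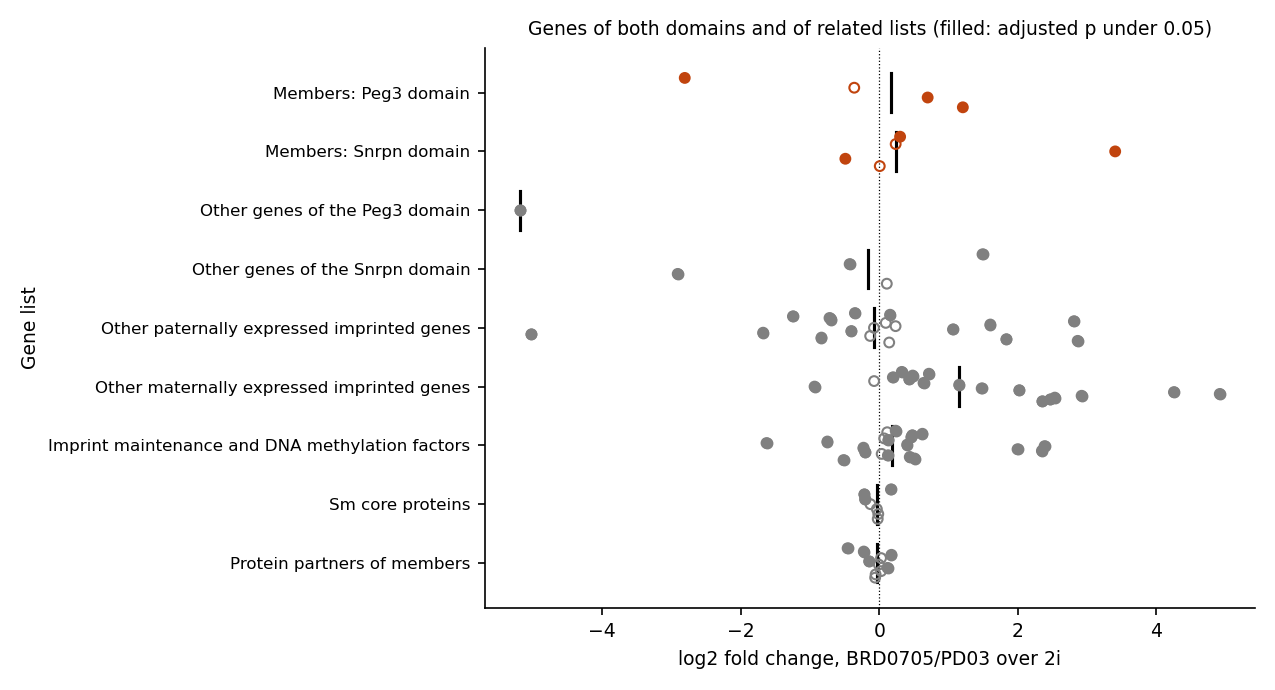
Tested genes of each list by their log2 fold change, BRD0705/PD03 over 2i, with filled points for an adjusted p under 0.05 and a black line at the median. The 9 members, in orange, lie on both sides of 0, as do the other paternally expressed imprinted genes, with a median of -0.08, whereas the maternally expressed ones have a median of 1.15.

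Factors of imprint maintenance and of DNA methylation were measured as well, because imprints depend on such factors. Of all 20 tested, 12 were higher and 5 lower in BRD0705/PD03 (30.1% and 31.4% over all genes tested), with a median of 0.19. The list includes chromatin factors that do not place or remove DNA methylation themselves. Among these, Trim28, Setdb1, Ctcf, Ehmt1, Ehmt2, Smchd1 and Arid4b were called higher, and Yy1 and Arid4a did not pass. The methyltransferase genes Dnmt3a and Dnmt3b rose, at 148 ± 8.52 CPM in BRD0705/PD03 against 28.9 ± 0.659 CPM in 2i and at 477 ± 21.8 CPM in BRD0705/PD03 against 119 ± 3.92 CPM in 2i (SD, n = 3 each). Dppa3, which shields the maternal genome from demethylation in the zygote, rose by 2.39 ± 0.06, and Tet2, which oxidizes methylcytosine, fell by 1.63 on the log2 scale. The other genes called lower were Tet3 (-0.75 ± 0.07), Zfp57 (-0.52 ± 0.04), Dnmt3l (-0.23 ± 0.05) and Uhrf1 (-0.20 ± 0.05). Tet1 was among those called higher (0.40 ± 0.04), and Dnmt1 did not pass (0.04 ± 0.04). No methylation was measured in these files.

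Over the 6 libraries, the genes whose log2 CPM pattern lay nearest to that of Peg3 by Euclidean distance, among 10227 genes averaging 5 CPM or more, were Lgr4 (distance 0.04), Rab34 (0.07) and Zfp652 (0.08). Lgr4, a receptor for R-spondins, had 251 ± 7.54 CPM in BRD0705/PD03 and 109 ± 2.28 CPM in 2i (SD, n = 3 each). Nearest to Snrpn were Vps35, Rpl29 and Pes1, each at a distance of 0.04, and none of these passed the test. With 2 groups, such a distance mostly reflects the size of the group difference.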

How the data were processed

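RNA-seq libraries from 3 BRD0705/PD03 and 3 2i samples were grouped and numbered by their titles. The deposited values are counts, whole numbers per gene symbol that the authors did not scale between libraries. The submitters' processing notes name Salmon and the build mm10, so the counts were taken as rounded estimates. Its version, the annotation and the use of strand are not stated there. Such estimates share reads out among overlapping or similar models.

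All symbols were fitted together with edgeR 4.0.16 in R 4.3.3 (filterByExpr, TMM scaling, robust quasi-likelihood test, group as the only term), with two-sided p-values adjusted by Benjamini-Hochberg over 20422 genes at a threshold of 0.05. SE was taken as log2 fold change over root F. Each count was worth 0.0199 to 0.0593 CPM, and intervals cover counting error only. Ratios added 0.5 to each count and used exact permutation. Positions and exon lengths came from GENCODE M21 (GRCm38), where 51951 symbols matched 1 gene, and promoter windows from RefSeq. Replicates differed by a chi-square of 2.77 to 9.84 per degree of freedom over genes with at least 20 counts in a pair, so no pair agreed within sampling noise. Separate cultures are not mentioned in the labels. The p-values therefore reflect the spread between these libraries alone, which may be technical.

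Members and lists were chosen with earlier results of these data known. Named by rule were the members, the other genes of both domains, up to 4 genes with the smallest p of each other list and of each domain's neighbours, and the 3 genes nearest in pattern to Peg3 and to Snrpn; not every gene so named is described. On data simulated for BRD0705/PD03 over 2i with 19911 genes tested, the test called, with the right sign, 40% of 50 genes changed 1.2-fold, 62% at 1.5-fold, 86% at 2-fold and 100% at 4-fold, and 10% of its calls were unchanged genes. That last share is above the threshold of 0.05. Only 200 genes were changed in the simulation, whereas 61.4% were called in the data. Adjustment is stricter when few genes change, so these shares do not carry over to the data. Other settings tried were no filter and a minimum mean of 1 CPM, upper-quartile and median-ratio factors, DESeq2 1.42.0, a block on replicate number, a null fold of 1.5, leaving out the sex chromosomes or each library, and, for ratios, a pseudocount of 1.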

Additional observations from a re-analysis of the deposited data

How the results depend on the processing

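Of the member results, Peg3, Zfp264 and Magel2 kept their call and direction under every alternative that tested them, with Peg3 between 1.197 and 1.27. Against a fold of 1.5, 2 members were called higher and 1 lower, and 2498 genes higher and 2596 lower over all genes, since that test asks for a larger change. Usp29 (adjusted p = 0.147), Ndn and Ube3a (both adjusted p = 1) lost their calls there and under no other alternative. With the replicate number as a block, 4 members were called higher and 2 lower, as without it, and 6059 genes higher and 6376 lower; same-numbered libraries deviated together at r = -0.01, 0.03 and -0.04, so the numbers do not pair the libraries. Mkrn3 alone among the members gained a call, under the 3 settings given with its values. Signs turned only for log2 fold changes that did not pass the test: without the sex chromosomes Snrpn was -0.00275 and Pes1 -0.00781, and Vps35 was 0.00107 with DESeq2, 0.00264 with median-ratio factors, 0.0595 with upper-quartile factors, 0.0163 with no filter and 0.0171 with a minimum mean of 1 CPM. Without 1 library, Snrpn lay between -0.00787 and 0.0514, Zim1 between -0.579 and 0.0392, Vps35 between -0.0214 and 0.0278, Rpl29 between -0.0133 and 0.0658 and Pes1 between -0.0171 and 0.0313. Zim1 and Magel2 were not tested at a minimum mean of 1 CPM. Depth limits both: Zim1 had 15 to 34 counts in BRD0705/PD03 libraries and 11 to 34 in 2i libraries, and Magel2 26 to 34 in BRD0705/PD03 and 0 to 7 in 2i. The 8 ratio differences moved by less than the spread between replicates with a pseudocount of 1. They also did so without any 1 library, but that outcome was fixed in advance. Leaving out 1 library of a group cannot shift the group's mean by as much as its spread. Those settings therefore do not show whether the ratios are stable.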

Other observations

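The other Sm proteins, which form the ring of the spliceosome that SmN joins, were counted by their single-gene calls. Of 7 tested, 1 was higher and 2 lower in BRD0705/PD03 (30.1% and 31.4% over all genes tested), with a median of -0.03. Snrpe stood at 112 ± 3.16 CPM in BRD0705/PD03 and 128 ± 11.7 CPM in 2i (SD, n = 3 each), and Snrpg at 78.1 ± 1.45 CPM in BRD0705/PD03 and 69.2 ± 6.67 CPM in 2i. Snrpg did not pass when any of 5 libraries was left out (adjusted p = 0.0505 to 0.0847), all but 2i replicate 2. Snrpe, called lower, did not pass without BRD0705/PD03 replicate 1 (adjusted p = 0.0541). Snrpf, the other gene called lower, did not pass with DESeq2 (adjusted p = 0.0848), with upper-quartile factors (adjusted p = 0.0571), or without 2i replicate 1 (adjusted p = 0.0545) or 2i replicate 2 (adjusted p = 0.0505). None of the 3 passed against a fold of 1.5.

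Of 10 genes listed as partners or relatives of the members' products, 2 were higher and 3 lower, with a median of -0.03. Over all genes tested the shares were 30.1% higher and 31.4% lower. Usp7, a protease that works with Magel2, differed by 0.12 ± 0.04, Ube2l3, an enzyme that passes ubiquitin to Ube3a, by -0.22 ± 0.04 and Nsmce3, another MAGE gene, by -0.46 ± 0.06.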
